A study of Saccharomyces cerevisiae with 10 samples.

Results

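Strong internal pause sites are single codons inside a coding sequence at which far more ribosome footprints were counted than at the rest of the same gene. In wild-type (WT) Saccharomyces cerevisiae they were taken as the codons with at least 10 times the mean footprint count of the gene. The mean ran over the internal codons, from codon 101 to the 11th from the end of the gene, and the gene had to average at least 5 footprints per internal codon. The rule found 788 sites in 492 genes, out of 467013 internal codons in the 1621 genes that reached this mean and out of 5225 genes listed for WT. These sites were 0.169% of the internal codons and held 457657 of their 15240905 footprints, or 3.00% (95% Clopper-Pearson interval 2.99 to 3.01, for counting error only). Since the sites were chosen by their WT counts, their height in WT is given as a description and carries no test.

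A ribosome footprint is the stretch of mRNA that a ribosome shields from nuclease, so the number of footprints at a codon grows with the time ribosomes spend there. Elongating ribosomes are known to dwell longer where peptide bonds form slowly, as at prolines, and where certain nascent chains hold them back. How far the supply of the cognate tRNA sets the dwell time is debated. Stalled ribosomes can cause collisions and call on rescue factors. Counts at single codons also depend on how the library was made.

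The sites were read in 5 strains of the S288C background, each grown to an optical density of 0.6 and each with 1 footprint library. WT carried no plasmid. ACA-K lacked 3 of its 4 copies of tT(UGU), the threonine tRNA gene whose product reads ACA codons, and carried nourseothricin, kanamycin and hygromycin B resistance in their place. WT-URA was wild-type yeast with the URA-marked 2-micron plasmid pRS426, for which the labels name no insert. AGG-OE carried the arginine tRNA gene tR(CCU)J, which reads AGG, on pRS426. AGG-QC carried on pRS426 a copy of tR(UCU)B whose anticodon had been mutated to CCU. WT-URA is thus the control for AGG-OE and AGG-QC, and WT for ACA-K. With 1 library per strain there is no replicate error and no test between strains, and a clone, culture or library effect cannot be told apart from the strain. Where 5 values follow each other they stand in the order WT, ACA-K, WT-URA, AGG-OE, AGG-QC, and 3 values for the plasmid libraries in that of the last 3.

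The libraries held 6011287 to 29706058 footprints, deepest in WT, then 21855176 in ACA-K and 9127829 or fewer in the 3 plasmid libraries. URA3, the plasmid marker, was listed for these 3 alone. The plasmid libraries therefore differed from WT and ACA-K in both plasmid and depth. The study gives rich medium for WT and selection without uracil for the plasmids, so plasmid, depth and any difference in medium cannot be told apart. The codon letters at the sites were not analysed here.

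In WT the sites were mostly just above the threshold. Their relative count, that is the footprint count at the codon divided by the internal mean of its gene, ranged from 10.002 to 53.7 with a median of 12.6, against a median of 0.66 over all internal codons. Of the 788 sites, 558 lay between 10 and 15, 135 between 15 and 20 and 95 at 20 or more, of which 23 reached 30. The counts behind them ran from 52 to 21862 footprints with a median of 193. Just inside the threshold were codon 271 of BAP3, an amino acid permease, with 65 footprints and a relative count of 10.002, and codon 1423 of MYO2, a class V myosin that carries vesicles along actin, with 56 footprints and 10.004. Just outside were codon 155 of MIS1, a mitochondrial folate enzyme, at 9.996 and codon 110 of SSZ1, a chaperone at the ribosome exit, at 9.99. A further 298 codons lay between 9 and 10.

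The footprints were concentrated at the site itself, with a low shoulder on either side. In WT the median relative count was 1.79 one codon before the site and 1.96 one codon after it, and it fell to between 0.88 and 1.02 at the next 2 codons. Upstream it was 1.03 to 1.22 at 2 and 3 codons before the site and 0.82 to 0.97 at 4 to 8 codons before it. From 12 to 20 codons before the site it lay between 0.61 and 0.66, near the median of all internal codons. Between 9 and 11 codons upstream, about 1 ribosome length away, the median was 0.68 to 0.72, so no separate peak stood there. In the other 4 libraries the same codons also carried the peak, with medians at the neighbouring codons of 1.32 and 1.81 in ACA-K and of 0.62 to 0.77 in the plasmid libraries.

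**Figure D1:**
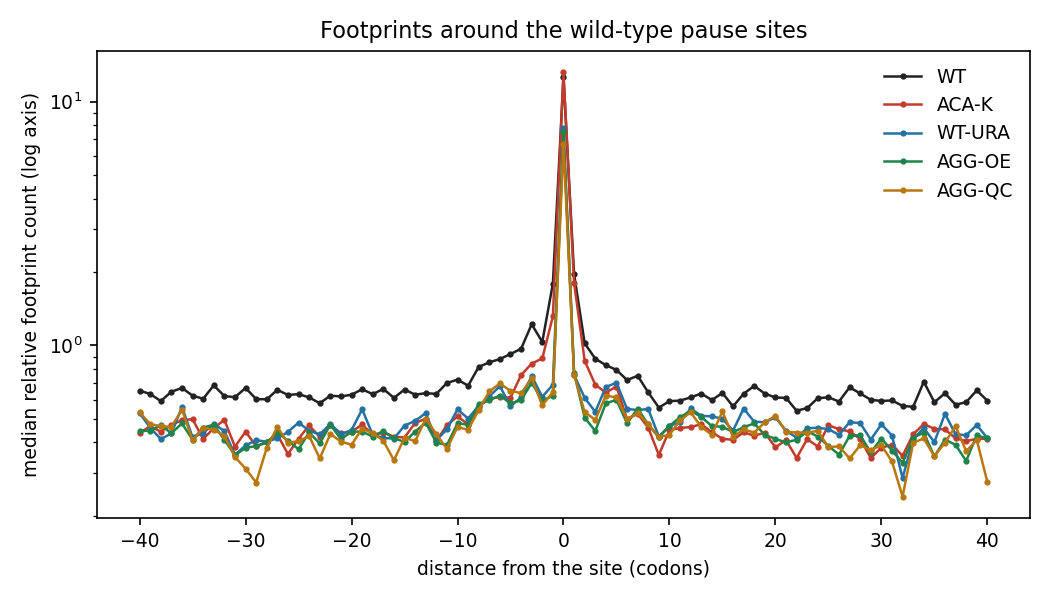
Median relative footprint count (log axis) at each codon from 40 before to 40 after the wild-type pause sites, 1 line per library. All 5 lines peak at the site itself, from 6.69 in AGG-QC to 13.2 in ACA-K, and only WT and ACA-K have medians above 1 at the codons next to it.

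Most genes with a site had only 1. One site was found in 326 genes, 2 in 101, 3 in 39 and 4 or more in 26. Of 296 pairs of successive sites in a gene, 35 were next to each other and 23 were 2 codons apart, whereas 211 were more than 11 codons apart. Sites within 2 codons of each other merged into 730 separate places. The share of codons that were sites was 0.243% from codon 101 to 200, 0.144% from 201 to 400, 0.144% from 401 to 800 and 0.0808% beyond. By the mean count of the gene it moved less, from 0.152% at 5 to 10 footprints per codon to 0.186% at 20 to 50 and 0.259% above 100. Genes with a site had a median list of 477.5 codons and those without one 271. A longer gene has more internal codons that can be a site, and the groups were not matched for length. The median gene mean was 13.2 and 13.7 footprints per codon in these groups, and the median mRNA signal per codon, as summed by the authors, was 84.3 and 101.

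A subset of sites lay in genes in which many codons had no footprint at all. No footprint was counted at more than 25% of the internal codons of 66 of the 1621 genes, called sparsely covered here, and 45 of these 66 held a site, with 136 of the 788 sites between them. In genes with more than 50% of codons empty, 2.09% of codons were sites, against 0.140% in genes with up to 5% empty. Such gaps lower the gene mean to which a site is compared. Over the mean of only those codons that had a footprint, 20 of the 136 sites stayed at 10 times or more, as against 525 of the 652 in the other genes. Many of the 66 genes are members of near-identical pairs, such as SSB1 and SSB2, the Hsp70 chaperones bound to ribosomes, and the authors kept only reads that mapped to 1 place. Among 14 pairs of gene copies of equal length with a site in both, 13 shared a site at the same codon, and 28 codons were sites in both copies. SSB1 and SSB2 shared 11, RPS4A and RPS4B, the copies of a small-subunit ribosomal protein, shared 4, and the glyceraldehyde-3-phosphate dehydrogenases TDH2 and TDH3 shared 2. Values in these genes are uncertain for that reason, and the part of unmappable codons in them was not tested.

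The 6 genes with the most sites, the last 2 tied, were SSB1 with 18, SSB2 with 15, TDH2 with 8, LYS20 (homocitrate synthase, the entry to lysine synthesis) with 7 and TDH3 and PDR5 with 6 each. In 5 of these 6, all but PDR5, 51.1% to 72.2% of internal codons were empty in WT. PDR5, the ABC transporter that exports drugs, had only 0.927% of its internal codons empty, and its 6 sites ranged from codon 120 to 693. RPO21, AKR1 and FKS1 followed with 5 sites each.

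Sparsely covered genes also supplied 6 of the 10 largest relative counts in WT. Codon 127 of RPS4A led the sites, with 712, 136, 8, 23 and 8 footprints in the 5 libraries and relative counts of 53.7, 35.0, 2.87, 7.08 and 4.54. The same codon of RPS4B held 600, 98, 15, 10 and 6 footprints, or 42.2, 15.5, 4.61, 2.90 and 3.32 times the gene mean. Both copies were high in WT and ACA-K and under 10 in the plasmid libraries. Codon 184 of TDH3 held 9220, 4238, 913, 1008 and 572 footprints, or 51.6, 40.4, 23.4, 26.1 and 24.3 times the mean. RPL7A, a large-subunit ribosomal protein gene with 85.2% of its internal codons empty, had sites at codons 221 and 227 with relative counts of 53.5 and 43.1 in WT and 46.9 and 53.8 in ACA-K. It was not listed for WT-URA and AGG-OE, and gave 12.4 and 56.8 in AGG-QC. Codon 547 of SSB1 gave 39.0, 18.2, 20.9, 14.0 and 19.9 in the same order of libraries.

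The other 4 of the 10 largest were in genes with few empty codons. Codon 439 of NMA111, a nuclear serine protease, held 303, 190, 25, 37 and 43 footprints and relative counts of 49.9, 46.9, 19.4, 22.0 and 36.6. It was thus at least 10 in every library. Codon 260 of ATP2, the beta subunit of the mitochondrial ATP synthase, held 2002, 2857, 103, 147 and 58 footprints and relative counts of 48.8, 85.4, 6.89, 9.68 and 5.22. Its value in ACA-K was the highest of any site in any library. Codon 347 of ELP3, the catalytic subunit of the Elongator complex that modifies tRNA, held 321, 88, 3, 3 and 2 footprints and 48.6, 25.6, 2.47, 2.06 and 2.16 times the mean. Codon 128 of PMT4, a protein mannosyltransferase of the endoplasmic reticulum, held 421, 89, 14, 9 and 4 footprints and 39.9, 12.9, 5.83, 3.55 and 2.56 times the mean. Both of the last fell below 6 in all 3 plasmid libraries.

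Read at the same codons, more of the sites again reached 10 in ACA-K than in the plasmid libraries. A site was read in another library when its gene was listed there with an internal mean of at least 1 footprint per codon, and it was called when it again reached 10 times that mean. In ACA-K all 788 sites were read and 532 were called, or 67.5% (95% Clopper-Pearson interval 64.1 to 70.8), where 0.591% of all internal codons were. In WT-URA 277 of 725 were called, or 38.2% (34.7 to 41.9), where 0.356% of all were. In AGG-OE 296 of 770 were called, or 38.4% (35.0 to 42.0), where 0.465% of all were. In AGG-QC 229 of 689 were called, or 33.2% (29.7 to 36.9), where 0.385% of all were. These shares were far above those of all internal codons in each library, the 3 plasmid libraries lay close together, and ACA-K lay apart from them. The share over all internal codons was also highest in ACA-K. The intervals treat sites as independent, although sites share genes, and measure no spread between libraries.

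The whole distribution moved in the same way. The median relative count of the sites was 13.2 in ACA-K, with quartiles of 8.50 and 20.5, and 7.77, 7.52 and 6.69 in the plasmid libraries. The median of all internal codons was 0.48, 0.46, 0.43 and 0.46 in these 4 libraries. In ACA-K no site was at 0 and 6 were under 2, whereas 134 of 725, 156 of 770 and 142 of 689 were under 2 in the plasmid libraries, 31, 36 and 39 of them with no footprint. At a call of 5 times the mean the shares were 92.6%, 64.8%, 63.6% and 59.5%, where 2.74%, 2.89%, 3.14% and 3.06% of all internal codons were called.

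**Figure D2:**
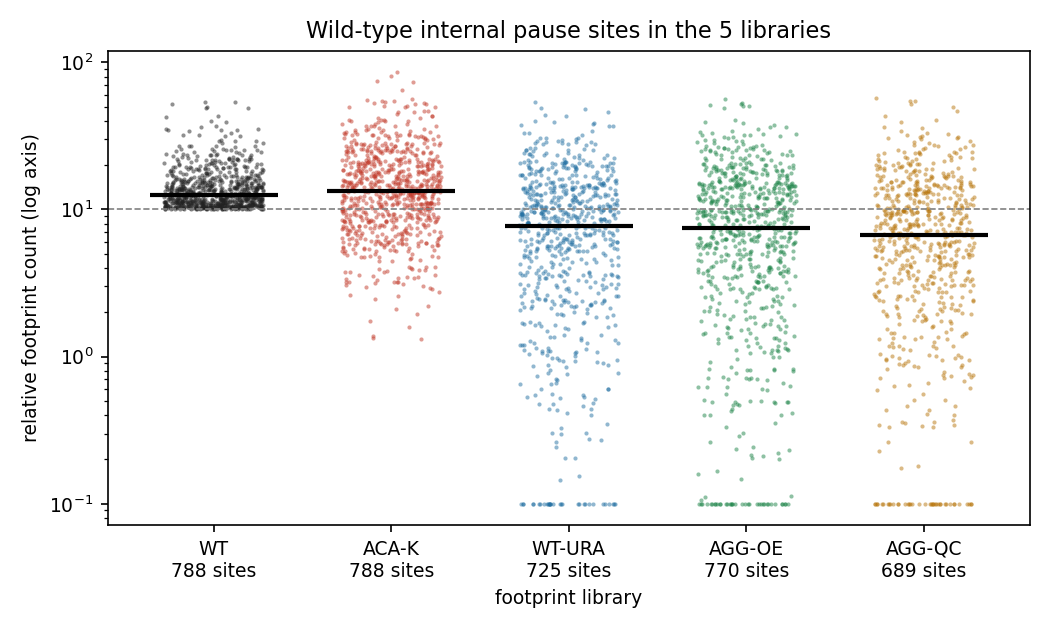
Relative footprint count (log axis) of each wild-type pause site in the 5 libraries, 1 point per site in genes with an internal mean of at least 1 there, with values under 0.1 drawn at 0.1, the median as a bar and the threshold of 10 as a dashed line. WT starts at 10 by the rule, ACA-K centres on 13.2 and the plasmid libraries on 6.69 to 7.77 with a tail down to 0.

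The gap was smaller where the plasmid libraries had more footprints. In genes with a mean of at least 5 footprints per codon in the library itself, 49.4% of 269, 48.3% of 302 and 44.3% of 194 sites were called in the plasmid libraries, where 0.34%, 0.445% and 0.366% of all internal codons were, and 68.5% of 635 in ACA-K, where 0.591% were. When the rule was applied to each library by itself it found 2192 sites in ACA-K and 484, 723 and 396 in the plasmid libraries. In the genes that reached a mean of 5 in both libraries, the 435 sites common to WT and ACA-K were 68.5% of the WT sites and 20.01% of the ACA-K sites. For WT-URA the 133 common sites were 49.4% of the WT sites and 28.7% of its own.

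Taller sites in WT were called more often elsewhere. In ACA-K the share rose from 20.2% of the codons at 5 to 10 times the mean in WT, which are not sites, to 61.1% at 10 to 15, 76.3% at 15 to 20, 90.3% at 20 to 30 and 100% of the 23 sites at 30 or more. In WT-URA the corresponding shares were 11.1%, 33.6%, 36%, 68.7% and 66.7%. Thus 7 of the 21 tallest sites read in WT-URA were under 10 there. AGG-OE and AGG-QC gave 61.9% and 72.7% of the tallest, read at 21 and 22 sites. Sparsely covered genes held 33 of the 95 sites at 20 or more. Of all sites read in these genes, 57.6%, 59.0% and 60% were called in the plasmid libraries. In the other genes 34.2%, 34.1% and 27.6% were. Height in WT and sparse coverage were not separated here.

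**Figure D3:**
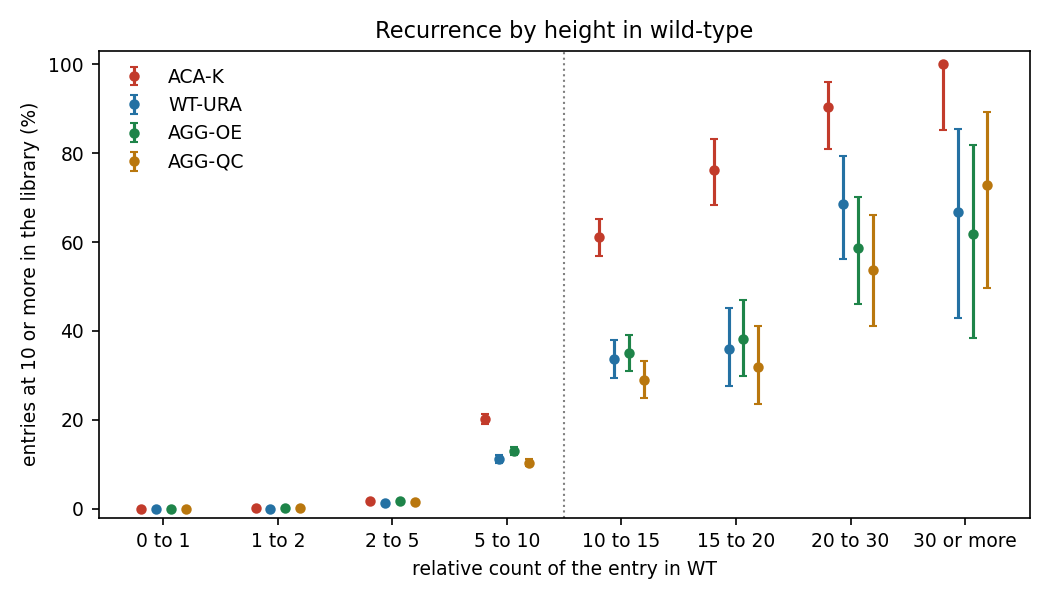
Share of internal codons at 10 or more times the gene mean in the other 4 libraries (%), by their relative count in WT. Bars are 95% Clopper-Pearson intervals that treat codons as independent. Codons right of the dotted line are the pause sites, and ACA-K lies above the plasmid libraries in every band from 5 upwards, for example at 61.1% against 28.9% to 35.0% at 10 to 15.

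Of the 788 sites, 686 were in genes with a mean of at least 1 in all 5 libraries. Among them 162, or 23.6%, were at 10 or more in all 5, where 0.0403% of all internal codons were, a count in which the WT part is fixed by the rule. At 5 or more in all 5 there were 373, or 54.4%, where 0.373% of all were. The 3 plasmid libraries were all at 10 or more for 196 sites, where 0.172% of all codons were, and all under 2 for 100 sites, where 77.5% of all codons were. ACA-K was above all 3 plasmid libraries at 511 sites, or 74.5%, where 31.4% of all codons were, and below all 3 at 106, or 15.5%, where 23.6% of all were.

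Some sites were far above the gene mean in all 5 libraries. The 10 with the highest lowest value included 6 in sparsely covered genes, namely SSB2 codon 543 (34.3 to 73.0), TDH2 codon 274 (31.6 to 80.3), SSB1 codon 549 (30.3 to 54.2), RPS4B codon 121 (27.2 to 52.0), TDH3 codon 184 (23.4 to 51.6) and codon 114 of the enolase gene ENO1 (23.1 to 29.4). The other 4 were in genes with few empty codons. Codon 313 of MYO2 held 176, 127, 54, 80 and 43 footprints in the 5 libraries and relative counts of 31.4, 35.8, 30.4, 37.5 and 27.2. Codon 310 of MYG1 held 489, 473, 99, 160 and 62 footprints and 25.5, 26.01, 27.6, 33.6 and 26.2 times the mean. At both codons the 5 values lay within 1.5 times of each other. Codon 471 of FUN12, the GTPase eIF5B that joins the ribosomal subunits at initiation, held 1303, 614, 312, 489 and 205 footprints and 35.2, 22.0, 44.1, 52.2 and 35.9 times the mean. Codon 219 of PFK1, a subunit of phosphofructokinase, held 2807, 4592, 392, 481 and 252 footprints and 35.0, 74.5, 22.8, 24.1 and 21.3 times the mean, with ACA-K highest.

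In genes with footprints at 75% or more of the internal codons, 17 sites in 17 genes were at 15 or more in all 5 libraries, a limit chosen after the values were seen. Besides NMA111, MYO2, MYG1, FUN12 and PFK1 these were in the second phosphofructokinase subunit PFK2 at codon 658 (18.7 to 32.5), the transketolase TKL1 at codon 105 (19.2 to 35.1), the release factor SUP45 at codon 104 (16.3 to 24.6), the dynamin-like VPS1 at codon 181 (20.4 to 27.1), the centromere-binding factor CBF1 at codon 180 (18.7 to 27.8) and the Arf exchange factor SEC7 at codon 146 (17.1 to 40.3). The remaining 6 were YHR020W codon 197, FET5 codon 491, ARO8 codon 479, PDR5 codon 120, TCB1 codon 601 and THR4 codon 478.

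Other sites were high in WT and ACA-K and under 2 times the gene mean in all 3 plasmid libraries. There were 19 such sites in 18 genes, with at least 10 in WT and ACA-K and under 2 in each plasmid library. They were 2.77% of the 686 sites, where 0.00472% of all internal codons were of the kind, again with the WT part fixed by the rule. In genes with a mean of at least 5 in all libraries they were 3 of 193, or 1.55%. Of the 100 sites under 2 in all 3 plasmid libraries, the other 81 were under 10 in ACA-K too. Codon 1031 of YEF3, the fungal elongation factor eEF3, held 4663 and 5044 footprints in WT and ACA-K and 36, 61 and 29 in the plasmid libraries. These were 11.2 and 15.5 times the mean against 0.54, 0.63 and 0.72. Codon 189 of RPL15A, a large-subunit ribosomal protein, held 5793, 2516, 29, 30 and 17 footprints and relative counts of 17.0, 11.3, 0.69, 0.56 and 0.72. At both codons the plasmid libraries were thus below the gene mean, with enough footprints for counting error to be small. Codon 163 of PDR5 held 759, 373, 1, 3 and 2 footprints, or 17.3, 13.5, 0.15, 0.35 and 0.36 times the mean. Codon 197 of BAT2, a branched-chain aminotransferase, held 734, 1197, 7, 5 and 5 footprints, or 15.4, 21.4, 1.61, 1.17 and 1.60 times the mean.

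The less expressed genes of this kind rested on counts near 0 in the plasmid libraries. Codon 303 of SNF4, the gamma subunit of the yeast AMP-activated kinase, held 128 and 132 footprints in WT and ACA-K, or 21.6 and 25.04 times the mean, and none in the plasmid libraries. A count of 0 there allows a relative count of up to 1.87, 1.56 and 2.00 in the 3 plasmid libraries, taken as 3 footprints. Codon 196 of CDC28, the cyclin-dependent kinase of the cell cycle, held 75 and 77 footprints, or 11.2 and 18.5 times the mean, and none in the plasmid libraries, with limits of 1.83, 1.54 and 2.13. The transcription factor subunit TFG1 at codon 319 held 178, 65, 3, 0 and 0 footprints, the zeros allowing up to 1.51 and 1.78. In all, 10 of the 686 sites had no footprint in any plasmid library. The share of all internal codons with none in any of them was not counted. The small-subunit assembly factor PNO1, the Golgi retention factor VPS74, the elongation factor SPT5 and the ribosome rescue factor HBS1 each had 1 site of the kind.

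**Figure D4:**
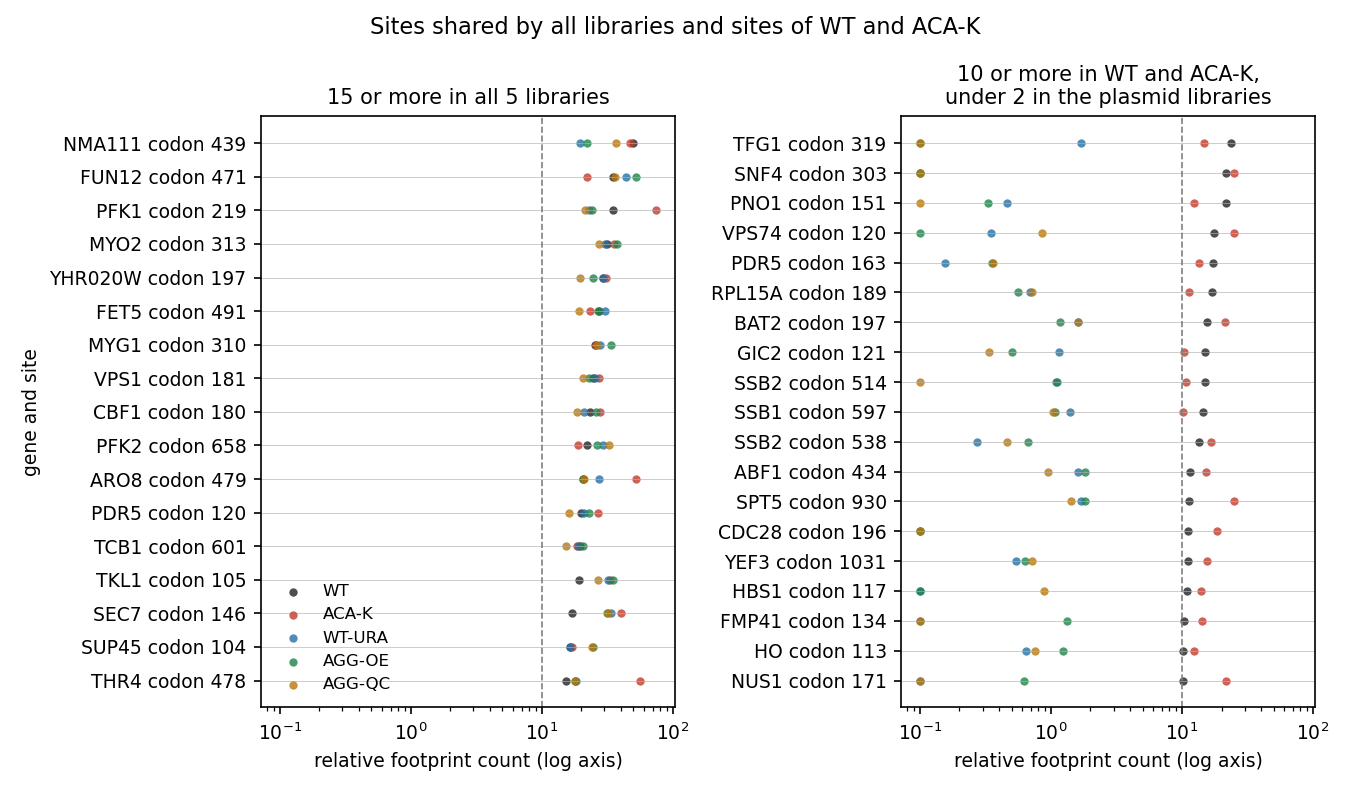
Relative footprint count (log axis) in the 5 libraries of the 17 sites at 15 or more in all of them (left) and of the 19 sites at 10 or more in WT and ACA-K and under 2 in the plasmid libraries (right), 1 row per site, with values under 0.1 drawn at 0.1 and the threshold of 10 dashed. On the right the 2 groups of libraries are apart at every site, as at YEF3 codon 1031 with 11.2 and 15.5 against 0.54 to 0.72.

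Both kinds of site occurred in the same gene. Since the count at each site is divided by the mean of its own gene, sites of 1 gene can be set side by side whatever the level of that gene. Of 142 genes with 2 or more sites read in all 5 libraries, 19 held a site at 10 or more in all 3 plasmid libraries and another under 2 in all 3. Over all 686 sites, 28.6% were of the first kind and 14.6% of the second. How many genes with both these shares would give was not computed. In 15 of these genes no more than 25% of the internal codons were empty in WT. Codon 160 of RPL15A held 3873, 2619, 1200, 1560 and 745 footprints in the 5 libraries and relative counts of 11.4, 11.7, 28.7, 29.1 and 31.5, while codon 189 of the same gene went down to 0.56 to 0.72 in the plasmid libraries. In YEF3, codon 521 held 4850, 2903, 940, 1258 and 550 footprints and relative counts of 11.6, 8.89, 14.0, 12.996 and 13.6, which changed little beside codon 1031. A further YEF3 site only 2 codons before that one, codon 1029, gave 11.5, 21.8, 2.42, 3.25 and 4.52.

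FUN12 and PDR5 were split within the gene as well. Codon 471 of FUN12 was at 35.2 in WT and 35.9 to 52.2 in the plasmid libraries, whereas codon 287 of the same gene held 378, 77, 0, 1 and 1 footprints, or 10.2, 2.76, 0, 0.11 and 0.17 times the mean. The count of 0 in WT-URA allows up to 0.42. In PDR5, codon 185 held 560, 873, 259, 284 and 168 footprints and 12.7, 31.6, 39.9, 33.3 and 30.4 times the mean. Codon 518 of the same gene held 960, 231, 5, 2 and 2 footprints and 21.8, 8.37, 0.77, 0.23 and 0.36 times the mean. The order of the 2 PDR5 sites was thus opposite in WT and in the plasmid libraries, and also in ACA-K.

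Enzymes of metabolism gave the same split. Codon 349 of AAT2, the cytosolic aspartate aminotransferase, held 708, 896, 111, 140 and 94 footprints and 14.3, 27.6, 13.2, 14.0 and 15.9 times the mean. Its codon 106 held 567, 85, 4, 2 and 3 footprints and 11.4, 2.62, 0.47, 0.20 and 0.51 times the mean. Codons 746 and 164 of ADE3, the cytoplasmic folate enzyme that feeds purine synthesis, were at 16.05 and 12.3 in WT, at 19.1 and 3.73 in ACA-K, and at 14.6 and 0 in WT-URA, where the 0 allows up to 0.41. Neighbouring codons could differ as well. In KGD1, the first subunit of the 2-oxoglutarate dehydrogenase complex, codon 156 held 104, 34, 0, 2 and 0 footprints, the zeros allowing up to 1.40 and 1.57 times the mean, and codon 157 held 74, 217, 27, 39 and 31. Codon 157 was at 12.04, 41.6, 12.6, 15.1 and 16.3 times the mean, so that the taller codon of the 2 was the first in WT and the second in the other 4 libraries.

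Other genes of the kind were FKS1, a subunit of the cell wall glucan synthase, and RPO21, the largest subunit of RNA polymerase II. In the plasmid libraries FKS1 was at 15.6 to 19.3 at codon 103 and at 0.16 to 1.64 at codons 176, 258 and 259. RPO21 was at 10.3 to 24.2 in the plasmid libraries at codons 159, 358 and 398, and held no footprint at codon 330 in any of the 3, which allows up to 1.23, 1.06 and 1.47. ADE6, RPN3, PRS1, GLT1, NPL6 and HO made up the rest with few empty codons, and HSP150, RPS4A, SSB1 and SSB2 were the 4 with many.

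Some sites reached 10 in WT alone, which includes sites just under 10 elsewhere. Codon 195 of YBL036C, for example, was at 10.7, 8.90, 7.30, 7.50 and 9.40. Among the 193 sites in genes with a mean of at least 5 in all 5 libraries, 28, or 14.5%, were under 10 in all 4 others, where 99% of all internal codons of these genes were. At a mean of at least 1 there were 166 of 686, or 24.2%, where 98.9% of all were. Codons at 5 to 10 times the mean in WT, which are not sites, were under 10 in all 4 others less often than all codons. The shares were 66.5% at a mean of at least 5 and 68.1% at a mean of at least 1. Among the 193, the largest ratio of WT to the highest other library was at codon 745 of CHC1, the clathrin heavy chain, with 231, 30, 8, 12 and 6 footprints and 13.4, 2.20, 1.11, 1.38 and 0.90 times the mean. AAT2 codon 106 came next. Codon 525 of CDC48, the ATPase that extracts ubiquitylated proteins, held 829, 201, 21, 39 and 19 footprints and 11.4, 2.93, 0.94, 1.54 and 0.95 times the mean. FUN12 codon 287 and codon 133 of WTM1, a transcriptional modulator, with 342, 91, 3, 1 and 2 footprints and 10.8, 3.45, 0.30, 0.11 and 0.23 times the mean, were the last of the 5. In each of these 5 the plasmid libraries were all below ACA-K.

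Single sites also differed between ACA-K and WT, the strains without plasmid. Relative to WT, ACA-K was at least 2 times higher at 85 of the 788 sites, or 10.8%, where 14.7% of all internal codons with at least 50 footprints over both libraries were. It was at least 2 times lower at 115, or 14.6%, where 17.7% of all were. The sites and these codons were not matched for count, since every site held at least 52 footprints in WT alone. The median log2 ratio of the sites was -0.03. Since WT chose the sites, no test of this difference is given. Across the sites Spearman's rho between WT and ACA-K was 0.34 (788 sites), over a range in WT that the rule cuts at 10. Among the 686 sites read in all 5 libraries, 1 in each of 11 genes was at least 3 times higher in ACA-K, a limit set after the values were seen. Codon 478 of THR4, threonine synthase, held 924, 2758, 206, 244 and 133 footprints in the 5 libraries and 15.3, 56.0, 18.2, 18.0 and 18.0 times the mean. ACA-K thus stood apart from 4 libraries that were nearly equal. The same held less evenly for codon 157 of KGD1, codon 289 of VAS1, the valyl-tRNA synthetase, with 10.9, 36.7, 11.4, 12.8 and 9.56 times the mean, and codon 341 of PAN1, an endocytosis scaffold, with 10.2, 31.7, 11.03, 13.7 and 10.4. SAC6, AKR1, HSP78, RAD23, SHS1, SFB3 and RPN6 were the others. Whether these codons are ACA, or precede or follow one, was not tested.

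The 3 plasmid libraries resembled each other closely at the sites. Across sites, Spearman's rho of the relative counts was 0.946 between WT-URA and AGG-OE (724 sites), 0.922 between WT-URA and AGG-QC (686) and 0.926 between AGG-OE and AGG-QC (687), against 0.433 to 0.482 between ACA-K and each of them. These are descriptions across sites, which share genes and, between libraries, the way they were prepared. None of these 4 libraries was used by the rule.

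**Figure D5:**
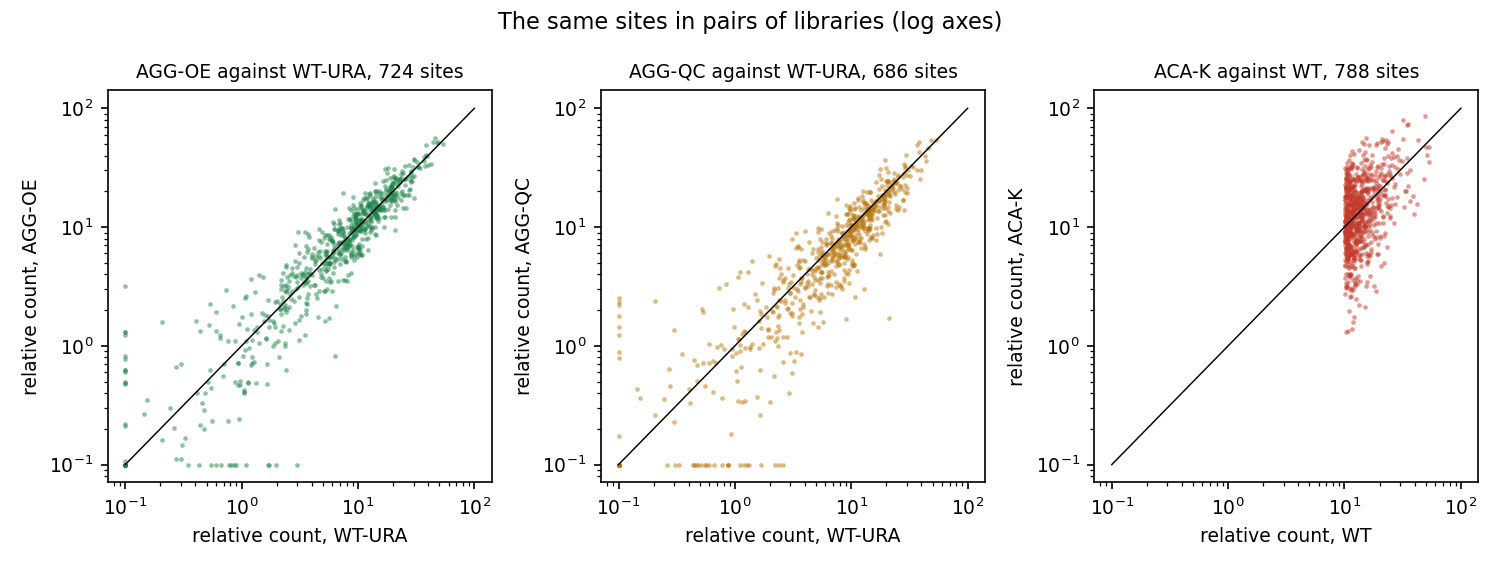
Relative counts of the same pause sites in AGG-OE against WT-URA, AGG-QC against WT-URA and ACA-K against WT (log axes), 1 point per site in genes with a mean of at least 1 in both libraries, with values under 0.1 drawn at 0.1 and the line of equal values. The points of the plasmid pairs follow the line with rho of 0.946 and 0.922, and those of ACA-K spread on both sides of it with rho of 0.34.

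In AGG-OE few sites differed from WT-URA by 2 times or more, and in AGG-QC lower sites outnumbered higher ones. Of 402 sites with at least 50 footprints over both libraries, 2 were at least 2 times higher in AGG-OE than in WT-URA, or 0.498%, where 1.62% of all internal codons with as many footprints were, and none was as much lower, where 1.37% of all were. The median log2 ratio was 0.04 with quartiles of -0.18 and 0.26. Of 345 sites in AGG-QC, 2 were at least 2 times higher, or 0.58%, where 1.46% of all were, and 13 were as much lower, or 3.77%, where 2.17% of all were. The median log2 ratio was -0.11. The sites and the codons set beside them were not matched for count beyond the minimum of 50 footprints. Whether any of these sites is an AGG codon was not tested. Without replicates these ratios carry no test.

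The 2 higher sites were the same codons in both strains. Codon 122 of YFR006W held 140, 28, 22, 51 and 32 footprints in the 5 libraries and relative counts of 15.4, 6.07, 7.49, 19.3 and 17.2. Codon 554 of SSB1, a gene with 72.2% of its internal codons empty, held 386, 98, 36, 107 and 38 footprints and 11.9, 4.98, 6.33, 14.3 and 13.05 times the mean. WT lay between WT-URA and the AGG strains at both codons. The 2 comparisons share WT-URA.

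The 13 sites lower in AGG-QC were in 13 genes. Codon 199 of FAS2, the alpha subunit of fatty acid synthase, held 365, 312 and 128 footprints in the plasmid libraries and 28.2, 24.7 and 14.0 times the mean. Codon 102 of PEP4, the vacuolar protease A, held 75, 60 and 19 footprints and 5.69, 4.81 and 1.60 times the mean. Codon 289 of SAC6, which bundles actin, held 85, 119 and 32 footprints and 8.08, 9.98 and 3.18 times the mean. In these 3 genes AGG-OE stayed near WT-URA while AGG-QC was lower. At codon 258 of CDC48, with 10.1, 6.11 and 4.99, and codon 171 of RPL8B, with 10.2, 5.88 and 4.83, AGG-OE was lower as well. The remaining genes were RPT2, ELO3, SCP160, RAD23, YKT6, SUB2, RPN5 and CLU1.

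Lists of highly translated genes were then read for their sites, by their symbols. Beside them stands the share over all 1621 genes, of which 30.4% held a site. Of the internal codons of all these genes 0.169% were sites. The share of codons was 0.470% in glycolysis and fermentation, 0.847% in ribosomal proteins, 0.919% in chaperones and 0.178% in translation factors. In glycolysis and fermentation 10 of 16 passing genes held 28 sites, but 21 of these lay in the 4 genes with more than 25% empty codons, TDH2, TDH3, ENO1 and ENO2. The 7 others were in PGK1, PFK1, PFK2, CDC19, PGI1 and FBA1. The largest count of any site was at codon 339 of PGK1, phosphoglycerate kinase, with 21862 footprints in WT and relative counts of 16.6, 33.4, 11.5, 13.7 and 9.16 in the 5 libraries. Codon 149 of CDC19, pyruvate kinase, held 16933 footprints in WT and gave 11.9, 12.1, 7.43, 6.50 and 6.03. At codon 665 of PFK1 the plasmid libraries were higher than WT, with 15.7, 12.6, 28.6, 29.4 and 33.8.

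Ribosomal proteins had 32 of 87 passing genes with a site and 49 sites, 37 of them in genes with more than 25% empty codons. Apart from RPL15A, RPL3 codon 330 held 8817 footprints in WT and was at 12.5, 9.50, 14.0, 14.0 and 13.9. Codon 187 of RPL16A was higher in every other library than in WT, at 10.8 in WT and 23.3 to 30.1 in the others. Chaperones had 6 of 8 genes with a site and 41 sites, 39 in sparsely covered genes. The other 2 were codon 148 of SSE1, the Hsp110 exchange factor, at 26.8, 21.8, 5.198, 4.998 and 3.57, and codon 293 of KAR2, the Hsp70 of the endoplasmic reticulum, at 11.3, 5.94, 1.64, 1.15 and 0.63. Both were lower in the plasmid libraries than in WT and ACA-K.

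No gene that passed in the lists of translation factors and aminoacyl-tRNA synthetases was sparsely covered. The factor list held 14 elongation, release and other abundant factors, but only 8 of them were listed for WT. All 8 passed and 3 had sites, 5 in all, with 3 in YEF3 and 1 in each subunit of the release factor. The factor list is not complete, since the initiation factors FUN12 and RPG1, which also had sites, are not in it. Codon 541 of SUP35, the release factor eRF3, held 895 footprints in WT and was at 20.3, 17.3, 14.5, 12.0045 and 12.8. Codon 104 of SUP45, the release factor eRF1, held 618 footprints and was at 16.4, 16.9, 16.3, 24.6 and 24.0. Both were thus above 10 in all 5 libraries.

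Aminoacyl-tRNA synthetases, which charge tRNAs with amino acids, had 8 of 18 genes with a site and 15 sites, none in a gene with more than 25% empty codons. This list was drawn up by gene symbol and may not be complete. The 15 sites were 0.142% of the internal codons of the list, against 0.169% over all genes that passed. ILS1, the isoleucyl-tRNA synthetase, held 4, of which codon 115 was at 13.8, 12.2, 22.5, 23.8 and 20.6 and codon 132 at 10.3, 6.33, 3.56, 2.30 and 1.74. Only 17 codons apart, they differed in the plasmid libraries by more than in WT. Codon 612 of ALA1, the alanyl-tRNA synthetase, was at 11.03, 15.5, 18.9, 19.6 and 18.1, and codon 109 of GLN4, the glutaminyl-tRNA synthetase, at 12.5, 11.98, 14.9, 15.5 and 16.9. Codon 117 of VAS1 held 736, 233, 2, 1 and 3 footprints and was at 18.2, 7.93, 0.27, 0.11 and 0.64, whereas its codon 289 stayed near 10 or above everywhere.

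Fatty acid synthesis and the proton pump gave 9 sites in all 4 genes. These sites were 0.135% of the internal codons of the 4 genes, against 0.169% over all genes that passed. Codon 110 of PMA1, the plasma membrane proton ATPase, held 5044 footprints in WT and was at 16.9, 32.2, 7.46, 8.56 and 4.70. Its codon 417 held 3716, 1928, 16, 24 and 18 footprints and was at 12.4, 9.49, 0.24, 0.30 and 0.36. Of all 9 sites 8 were called in ACA-K and 2, 2 and 3 in the plasmid libraries. Over the sites of all genes 67.5% were called in ACA-K and 38.2%, 38.4% and 33.2% in the plasmid libraries. Over all internal codons the shares were 0.591%, 0.356%, 0.465% and 0.385%. The acetyl-CoA carboxylase ACC1 had sites at codons 177, 260 and 1549, of which codon 260 was at 10.6, 18.0, 2.36, 2.20 and 1.75 and the other 2 were between 7.69 and 10.4 in the plasmid libraries.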

How the data were processed

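Ribosome footprints of 5 yeast strains were used, with 1 library each. The authors aligned reads with Bowtie 1.0.0 to SGD assembly R63, kept unique matches of limited length and mismatch, assigned each to its active codon, and deposited per gene a list of raw footprint counts, 1 per codon (unit not named in the table), with the summed count. The authors also deposited 1 summed mRNA signal per gene, in no stated unit, and the gene length. Lists matched the RefSeq length of assembly R64, used for symbols only, in 4875 of 5143 genes. The relative count is the count divided by the mean of internal codons. The first 100 and last 10 codons were left out. Members, lists and limits were chosen with earlier results of these data known.

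The text names the 10 sites with the largest relative count in WT, the 10 with the largest lowest value over the 5 libraries, the 5 with the largest ratio of WT to the highest other library in genes with a mean of at least 5 in all libraries, the 5 genes with the most sites, and the 2 sites on either side of the threshold. All other named sites were chosen after their values were seen. Intervals are exact (Clopper-Pearson). For the share of footprints at sites they cover counting error only, as do limits from a count of 0 (3 counts). Reads are not independent molecules. For shares of codons the intervals treat codons as independent, although sites share genes. Depth ran from 6011287 to 29706058 footprints. With 1 library per strain no test between strains was possible. Alternatives changed the gene mean, the fold, the mean taken and the codons and genes left out. Codons and residues at the sites were planned but not analysed here, nor were mRNA fragments at single codons. Analyses ran in Python 3.11.15 with numpy 2.4.6 and scipy 1.17.1, and figures in matplotlib 3.10.9. Site finding was tested on simulated counts with planted sites.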

Additional observations from a re-analysis of the deposited data

How the results depend on the processing

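The number of sites went from 788 to 495 and 278 at a gene mean of at least 10 and 20, to 95 at a fold of 20, to 469 without the first 200 codons and to 492 with 1 site per gene, all by construction. The share called in ACA-K moved from 67.5% to 74.1% at a gene mean of 20, 92.6% for sites at a fold of 20, 57.2% over the mean of codons with a footprint, 71.1% with 1 site per gene, 92.6% at a call of 5 times, 71.6% with the highest of the site and its neighbours, and 62.8% over a local mean of 25 codons each way. That last setting was added after seeing the data. In the plasmid libraries WT-URA, AGG-OE, AGG-QC the share moved from 38.2%, 38.4% and 33.2% to 47.3%, 48.6% and 40.9% at a gene mean of 20, to 68.2%, 59.3% and 58.4% at a fold of 20, to 22.1%, 24.0% and 16.2% over codons with a footprint, to 34.2%, 34.1% and 27.6% without sparsely covered genes, to 49.4%, 48.3% and 44.3% at a mean of 5 in the library, and to 64.8%, 63.6% and 59.5% at a call of 5 times. A gene mean of 10 gave 42.9% in AGG-OE. Why the shares moved was not tested. Under all of these settings ACA-K had the highest share. Of all 109 values recomputed 56 stayed within their interval or within 1.5 times and 53 moved. No paired analysis was possible because each strain has 1 footprint library. The planned readings of residues at the sites were not run, because coding sequences were not used here. Depth limits the plasmid libraries most, where a gene mean of 1 makes 1 footprint a relative count of 1.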
